A study of Rattus norvegicus with 9 samples.

Results

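Heat shock proteins and endoplasmic reticulum (ER) chaperones were examined on 9 whole-transcript Affymetrix arrays of laser-captured rat liver. The members were all platform symbols of the Hspa, Hspb, Hspd, Hspe, Hsph, Hsp90, Dnaja, Dnajb, Dnajc and Pdia families, together with Calr, Canx, Hyou1, Sdf2l1, Xbp1, Ern1, Atf6, Herpud1 and Hsf1. Membership follows from the symbol alone. The rule gave 79 of the 18166 genes with their own probe set, and 76 of the 79 were bright enough to be tested. Dnajb7, Dnajc17l1 and Hspa2 were not. One member, Hsp90aa1-ps2, is a pseudogene whose sequence is close to its parent gene. A further 5 probe sets of these families list several symbols and were not used. The cytosolic HSP70 genes Hspa1a and Hspa1b and the HSP90 gene Hsp90aa1 had no probe set of their own, so the results on cytosolic genes do not cover them.

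The livers came from female F344 rats in the retrorsine and partial hepatectomy model. Retrorsine, an alkaloid that blocks division of resident hepatocytes, had been injected at 30 mg/kg 2 times, 2 weeks apart, and part of the liver was removed 4 weeks after the second injection. In such livers, small hepatocyte-like progenitor cells (SHPCs) form clusters between the blocked hepatocytes. Each group had 3 arrays. The hepatocyte group held hepatocytes beside SHPC clusters in livers without transplantation, the SHPC group held clusters from livers without transplantation, and the transplant SHPC group held clusters from livers that had received sorted Thy1+ cells. Those donor cells were DPPIV+, the recipients DPPIV−, and the cells were given through the spleen. All groups therefore share retrorsine and hepatectomy, and no untreated liver and no hepatocytes of transplanted livers were analysed here. The description label of the hepatocyte arrays speaks of transplanted SHPCs, while their cell type label and titles give hepatocytes, which were followed. The sources used here give neither the number of animals nor their age, so p-values measure the spread between arrays, which may be partly technical.

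Chaperones hold unfolded proteins until they fold. In the cytosol, HSP70 proteins work with J proteins, which deliver clients, with HSP110 proteins, which exchange their nucleotide, and with HSP90, and the transcription factor Hsf1 raises many of their genes under heat or protein damage. In the ER, the HSP70 protein BiP, encoded by Hspa5, works beside the lectin chaperones calnexin and calreticulin and the protein disulfide isomerases. When unfolded proteins build up there, the sensors encoded by Ern1 and Atf6 and the factor encoded by Xbp1 raise the ER genes, a programme called the unfolded protein response (UPR). Hepatocytes secrete most plasma proteins and depend heavily on this ER machinery.

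The ER genes tended to lie highest in the transplant SHPCs, lower in SHPCs and lowest in hepatocytes, while several cytosolic heat shock genes lay in the opposite order. The step between SHPCs and transplant SHPCs depended on the scaling. Under cyclic loess Hspa5, Hsp90b1, Canx, Dnajc3 and Pdia4 were lower in transplant SHPCs than in SHPCs. The step between hepatocytes and SHPCs was small. There 14 of 17 ER genes were higher in SHPCs, against 48.6% of all genes, with a median log2 difference of 0.11. Without hepatocyte array 2 the count was 12 of 17. This set of 17 was formed after the values were seen and carries no test. Only Pdia6, a protein disulfide isomerase of the ER, passed the test across all genes. It rose 1.99-fold in transplant SHPCs over hepatocytes, by 0.99 ± 0.17 on the log2 scale (SE, n = 3 arrays a group; limma adjusted p = 0.0248), and that call was lost when any single array of either group was left out. Changes below are log2 differences with their SE from a limma fit over all 9 arrays, and adjusted p-values were taken over the 15793 genes tested, with 0.05 as the threshold. A level is the log2 of the deposited intensity, listed in the order of arrays 1, 2 and 3. Levels of different genes rest on different probes and were not compared.

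**Figure D1:**
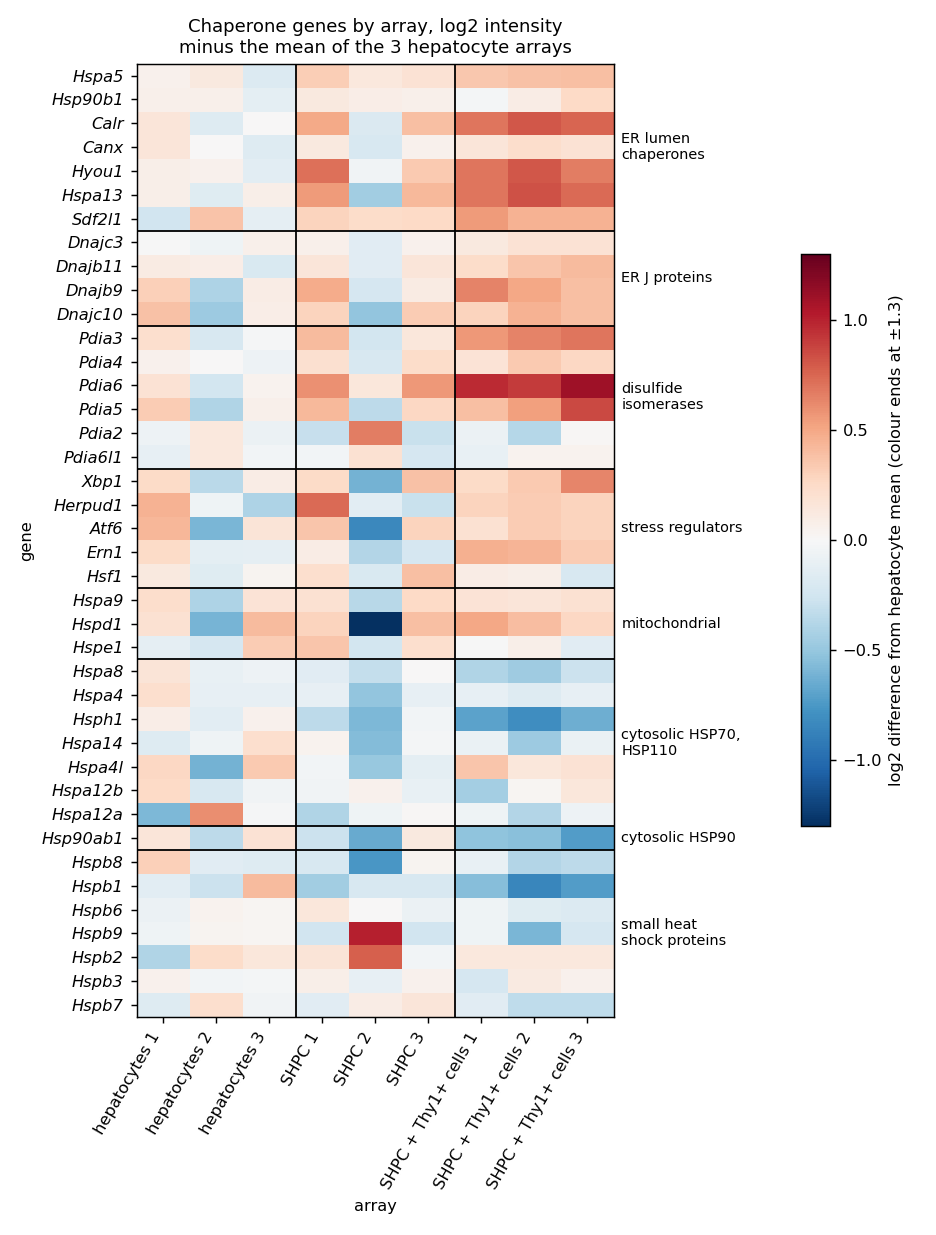
Log2 level of the tested members on each of the 9 arrays (columns, grouped by hepatocytes, SHPCs and transplant SHPCs), minus the mean of the 3 hepatocyte arrays; rows are genes ordered by role. ER chaperones and disulfide isomerases are mostly above the hepatocyte mean in transplant SHPCs, and SHPC array 2 and hepatocyte array 2 differ from the others of their group in many rows.

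Array 2 of the SHPCs and array 2 of the hepatocytes were unlike the other 7. The median linear intensity was 24.1 and 23.0 there and 19.6 to 20.6 elsewhere, and the spread of their log2 values over genes was narrower, with SDs of 1.94 and 1.98 against 2.09 to 2.13. The first principal component, with 54.4% of the variance, placed them at 54.1 and 42.2 and the others between −22.8 and 2.3. Values without one of them are given beside several of the differences and medians below. The median SD between arrays of a group was 0.205 for the members in hepatocytes, 0.243 in SHPCs and 0.0935 in transplant SHPCs, close to 0.226, 0.252 and 0.11 for all tested genes.

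The sequence upstream of the start sites is shown for 3 ER genes and 2 cytosolic genes that the comparisons turn on, because their elements for the 2 stress programmes differ. RefSeq on build GRCr8 gave the 250 bases before the start for 62 of the 79 members. Both strands were searched for 4 elements. The heat shock element, to which Hsf1 is known to bind, was read as TTC, GAA and TTC with any 2 bases between neighbours. The ER stress element was CCAAT and CCACG with any 9 bases between them, the second ER stress element was ATTGG and CCACG with 1 base between them, and the UPR element core was TGACGTG. Capitals mark the fixed letters of the matches. The regions, all on the plus strand, are chr3:38452766-38453015 for Hspa5, chr19:40213117-40213366 for Calr, chr8:53602632-53602881 for Hyou1, chr12:10427118-10427367 for Hsph1 and chr8:50080264-50080513 for Hspa8.
Hspa5: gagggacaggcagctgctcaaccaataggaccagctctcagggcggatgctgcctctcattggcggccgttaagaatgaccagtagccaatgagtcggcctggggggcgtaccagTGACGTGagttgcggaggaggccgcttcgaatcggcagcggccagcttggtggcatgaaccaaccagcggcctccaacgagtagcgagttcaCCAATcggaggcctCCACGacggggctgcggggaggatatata
Calr: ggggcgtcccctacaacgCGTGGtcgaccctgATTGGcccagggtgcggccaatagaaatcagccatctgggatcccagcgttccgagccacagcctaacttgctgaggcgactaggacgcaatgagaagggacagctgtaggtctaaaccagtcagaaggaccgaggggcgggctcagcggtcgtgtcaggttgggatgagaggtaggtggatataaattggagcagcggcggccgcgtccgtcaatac
Hyou1: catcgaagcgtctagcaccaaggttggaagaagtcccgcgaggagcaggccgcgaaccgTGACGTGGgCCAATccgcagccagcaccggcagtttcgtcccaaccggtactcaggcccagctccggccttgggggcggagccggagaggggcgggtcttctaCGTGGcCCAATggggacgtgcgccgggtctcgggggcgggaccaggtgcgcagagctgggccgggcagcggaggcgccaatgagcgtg
Hsph1: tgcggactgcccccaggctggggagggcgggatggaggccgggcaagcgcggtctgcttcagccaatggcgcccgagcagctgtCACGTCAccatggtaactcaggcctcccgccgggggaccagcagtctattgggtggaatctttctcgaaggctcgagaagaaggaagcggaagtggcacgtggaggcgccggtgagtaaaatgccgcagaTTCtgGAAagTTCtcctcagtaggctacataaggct
Hspa8: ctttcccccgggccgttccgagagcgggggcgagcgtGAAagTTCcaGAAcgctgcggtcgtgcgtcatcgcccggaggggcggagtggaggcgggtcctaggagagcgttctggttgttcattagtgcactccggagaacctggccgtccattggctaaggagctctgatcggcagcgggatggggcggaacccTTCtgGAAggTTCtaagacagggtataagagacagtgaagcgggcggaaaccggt

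Counting back from the start site, Hspa5 held the ER stress element at −43 to −25 and the UPR core at −135 to −129. Calr held the ER stress element on the other strand at −232 to −214. Hyou1 held the second ER stress element at −188 to −178 and again at −88 to −78, with a UPR core at −191 to −185 that overlaps the first of these. Hsph1 held a heat shock element at −36 to −24 and a UPR core at −166 to −160, and Hspa8 held heat shock elements at −213 to −201 and −55 to −43.

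The elements were sparse among all rat promoters. The ER stress element occurred in 6 of 62 member windows (9.68%), those of Calr, Canx, Dnajc3, Hsp90b1, Hspa5 and Xbp1, against 21 of 27457 windows in all (0.0765%). The second form occurred upstream of Herpud1 and Hyou1, 2 of 62 (3.23%), against 12 of 27457 (0.0437%). The heat shock element was found upstream of Hspa8, Hspd1, Hspe1 and Hsph1 (6.45%), against 164 windows in all (0.597%), and the UPR core upstream of Dnajb3, Dnajc10, Dnajc25, Hspa5, Hsph1 and Hyou1 (9.68%), against 437 in all (1.59%). Hspd1 and Hspe1, which encode the mitochondrial chaperonin and its lid, start 290 bases apart on opposite strands of chromosome 9, and their windows share 211 bases, so their matches are the same letters. A match describes the letters and is no evidence of binding. The elements were chosen as those of the 2 stress programmes, so their higher share among the members carries no test.

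The HSP70-family chaperones and lectins of the ER lumen were the first role. BiP, encoded by Hspa5, had levels of 10.78, 10.85 and 10.55 in hepatocytes, 11.05, 10.86 and 10.91 in SHPCs and 11.08, 11.11 and 11.12 in transplant SHPCs. The 3 groups did not overlap, in that order, although the highest hepatocyte array and the lowest SHPC array were almost level. The differences were 0.21 ± 0.13 for SHPCs over hepatocytes (adjusted p = 1.00), 0.16 ± 0.13 for transplant SHPCs over SHPCs (adjusted p = 0.734) and 0.38 ± 0.13 for transplant SHPCs over hepatocytes (adjusted p = 0.307), so none passed. The middle one changed sign to −0.09 under cyclic loess scaling.

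Calr encodes calreticulin, the soluble lectin chaperone. Its levels were 10.45, 10.13 and 10.30 in hepatocytes, 10.79, 10.10 and 10.68 in SHPCs and 10.98, 11.10 and 11.05 in transplant SHPCs. All transplant arrays were above all others, and SHPC array 2 was the lowest of the 9. Calr differed by 0.75 ± 0.19 between transplant SHPCs and hepatocytes (adjusted p = 0.114) and by 0.52 ± 0.19 between transplant SHPCs and SHPCs (adjusted p = 0.575), and the second difference was 0.31 without SHPC array 2. Canx, the membrane-bound counterpart calnexin, had 10.23, 10.08 and 9.90 in hepatocytes, 10.20, 9.86 and 10.12 in SHPCs and 10.23, 10.30 and 10.26 in transplant SHPCs, so that only the last group stood above the others, by at most 0.20 ± 0.14, or 0.10 over SHPCs without SHPC array 2, and cyclic loess turned both of its transplant differences below 0.

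Hyou1 encodes an ER relative of HSP110 that exchanges BiP's nucleotide. It lay at 7.22, 7.19 and 7.00 in hepatocytes, at 7.85, 7.09 and 7.48 in SHPCs and at 7.83, 7.94 and 7.80 in transplant SHPCs. Transplant SHPCs were above all hepatocytes, by 0.72 ± 0.19 (adjusted p = 0.131), but overlapped SHPC array 1. The SHPC arrays spread over a wider range than either other group, and Hyou1 was 0.34 ± 0.19 higher in SHPCs than in hepatocytes (adjusted p = 1.00) and 0.38 ± 0.19 higher in transplant SHPCs than in SHPCs (adjusted p = 0.697). These were 0.53 and 0.19 without SHPC array 2.

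Hspa13, a microsome-bound HSP70 relative, had 6.39, 6.16 and 6.39 in hepatocytes, 6.87, 5.86 and 6.73 in SHPCs and 7.01, 7.14 and 7.04 in transplant SHPCs. SHPC array 2 was the lowest of the 9 and the transplant arrays were the 3 highest. The difference of transplant SHPCs from hepatocytes was 0.75 ± 0.23 (adjusted p = 0.243). That from SHPCs was 0.58 ± 0.23 (adjusted p = 0.653), and 0.27 without SHPC array 2.

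Sdf2l1, which works with BiP and its J proteins, had 5.63, 6.25 and 5.77 in hepatocytes, 6.17, 6.13 and 6.15 in SHPCs and 6.44, 6.34 and 6.33 in transplant SHPCs. Hepatocyte array 2 lay above all SHPC arrays, and the transplant arrays were the highest. The difference of transplant SHPCs from hepatocytes was 0.49 ± 0.16 (adjusted p = 0.294). Hsp90b1, the ER form of HSP90, had levels from 10.34 to 10.73 on the 9 arrays with all groups overlapping, and its largest difference was 0.11 ± 0.13.

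Over the 7 ER lumen chaperones the median difference was 0.49 for transplant SHPCs over hepatocytes, with 7 of 7 higher and 6 not overlapping, where 12.6% of all genes did not overlap in that direction. It was 0.22 for transplant SHPCs over SHPCs, with 7 of 7 higher, and 0.21 for SHPCs over hepatocytes, with 6 of 7 higher. The medians of all 15793 genes were −0.00, 0.02 and −0.01, and 49.7%, 53% and 48.6% of them were higher. The median kept its sign under quantile normalization, cyclic loess and median centring, from 0.40 to 0.58 for transplant SHPCs over hepatocytes, although cyclic loess left 5 of 7 higher there and 4 of 7 over SHPCs. No ER lumen chaperone passed the test in the fit over all 9 arrays.

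**Figure D2:**
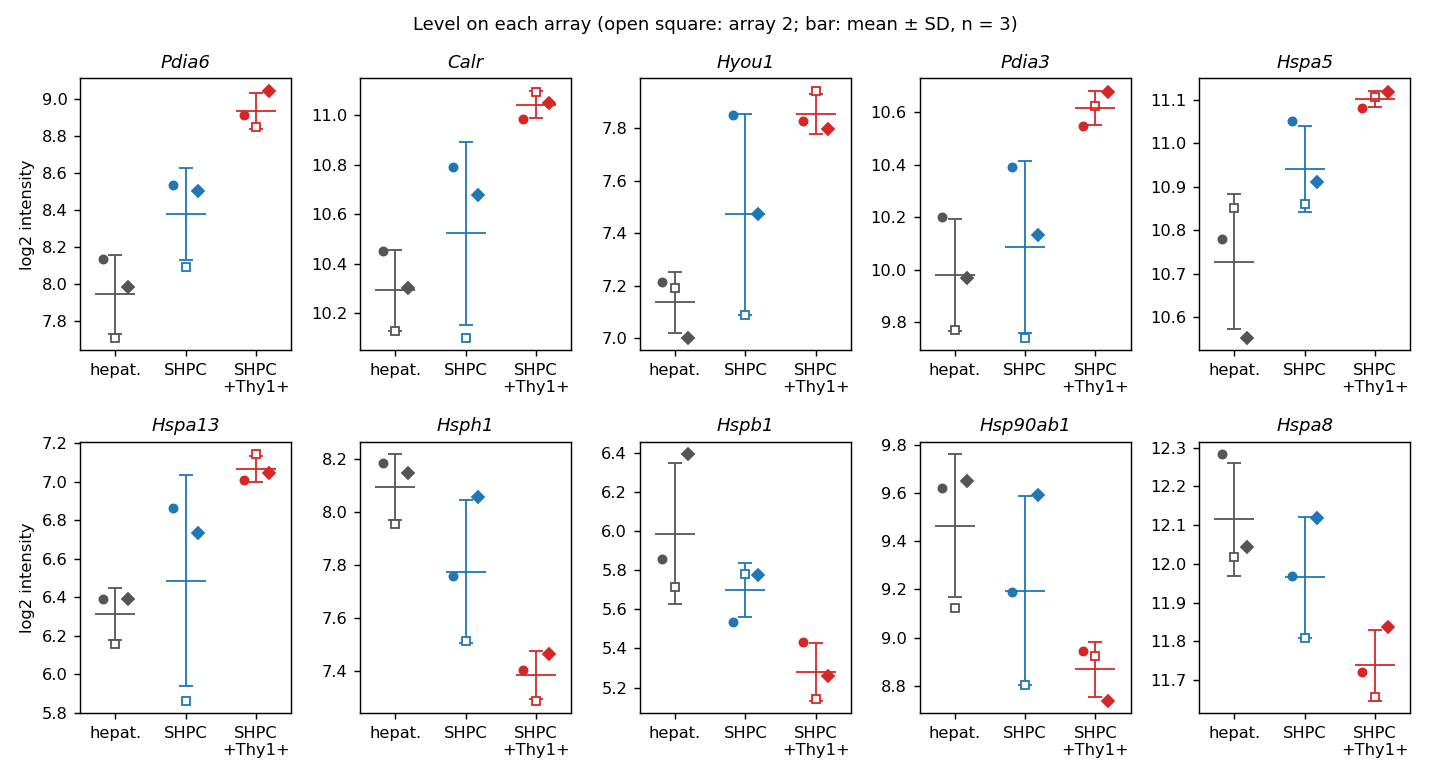
Log2 intensity of single members (panels) on each array; points are the 3 arrays of hepatocytes, SHPCs and SHPCs of livers given Thy1+ cells, circles are array 1, open squares array 2 and diamonds array 3, and bars are the mean ± SD (n = 3). Pdia6 and Calr are highest on the 3 transplant arrays, and Hsph1 and Hspb1 are lowest there.

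The protein disulfide isomerases form and rearrange disulfide bonds in secreted proteins. Pdia6, an isomerase that associates with BiP, had levels of 8.13, 7.71 and 7.99 in hepatocytes, 8.54, 8.09 and 8.51 in SHPCs and 8.91, 8.85 and 9.05 in transplant SHPCs. Transplant SHPCs stood above every other array, and of the SHPC arrays only the second reached down into the hepatocyte range. Pdia6 rose in transplant SHPCs over hepatocytes as given above. Its other differences did not pass, at 0.56 ± 0.17 for transplant SHPCs over SHPCs (adjusted p = 0.460) and 0.44 ± 0.17 for SHPCs over hepatocytes (adjusted p = 1.00).

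The call of Pdia6 was lost when any 1 of the 6 arrays compared was left out, while its size moved little. It was kept in the fit without both arrays that stand apart, which also leaves out hepatocyte array 2. The adjusted p was 0.124, 0.0992 and 0.140 without transplant array 1, 2 or 3 and 0.0573, 0.0850 and 0.0911 without hepatocyte array 1, 2 or 3, with changes between 0.88 and 1.09. Median centring gave 1.09 with an adjusted p of 0.0986.

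Pdia3, the isomerase that serves calnexin and calreticulin, had 10.20, 9.77 and 9.97 in hepatocytes, 10.39, 9.74 and 10.13 in SHPCs and 10.55, 10.62 and 10.68 in transplant SHPCs. The transplant arrays were the 3 highest, and SHPCs and hepatocytes overlapped. Its difference was 0.64 ± 0.18 for transplant SHPCs over hepatocytes (adjusted p = 0.191) and 0.53 ± 0.18 over SHPCs (adjusted p = 0.548), the latter 0.35 without SHPC array 2.

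Pdia5 had 7.49, 6.76 and 7.22 in hepatocytes, 7.57, 6.81 and 7.43 in SHPCs and 7.55, 7.68 and 8.02 in transplant SHPCs, with both arrays numbered 2 low in the first 2 groups. Pdia4, another isomerase, lay between 8.91 and 9.46 on the 9 arrays, at 0.26 ± 0.15 for transplant SHPCs over hepatocytes (adjusted p = 0.604). Pdia2 differed by −0.14 ± 0.25 in that comparison, and the 6 isomerases, which include the paralog Pdia6l1, had medians of 0.43 there, 0.33 for transplant SHPCs over SHPCs and 0.09 for SHPCs over hepatocytes. The last 2 medians were 0.20, with 6 of 6 higher in place of 5, and 0.25 without SHPC array 2. In these 6, then, Pdia6, Pdia3, Pdia5 and Pdia4 were higher on every transplant array than on every hepatocyte array, and Pdia2 and Pdia6l1 were not.

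The ER J proteins recruit BiP to its clients. Dnajb9 had 7.28, 6.58 and 7.07 in hepatocytes, 7.46, 6.76 and 7.08 in SHPCs and 7.62, 7.48 and 7.37 in transplant SHPCs. Dnajb11, a J protein that binds nascent chains, had 7.57, 7.55 and 7.27, then 7.62, 7.32 and 7.62, then 7.70, 7.82 and 7.87 in the same order. In both, all transplant arrays lay above all hepatocyte arrays, by 0.51 ± 0.22 (adjusted p = 0.460; 0.31 without hepatocyte array 2) and 0.33 ± 0.14 (adjusted p = 0.463).

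Dnajc3, also called P58IPK, an inhibitor of the kinases that phosphorylate eIF2α, differed little, by 0.17 ± 0.12 between transplant SHPCs and hepatocytes (adjusted p = 0.681), and this value fell to 0.01 after quantile normalization and to −0.02 under cyclic loess. Dnajc10, a J protein with disulfide reductase activity, overlapped in all groups at 0.38 ± 0.26. The median of the 4 was 0.36 for transplant SHPCs over hepatocytes, 0.31 over SHPCs and 0.05 for SHPCs over hepatocytes, and none passed. The last 2 were 0.14 and 0.23 without SHPC array 2, and without hepatocyte array 2 the first was 0.23 and the last −0.06.

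Of the regulators, Ern1, which encodes the sensor IRE1α, had 6.94, 6.56 and 6.58 in hepatocytes, 6.79, 6.32 and 6.48 in SHPCs and 7.16, 7.13 and 7.02 in transplant SHPCs. The transplant arrays were the 3 highest and the other groups overlapped. The difference of 0.57 ± 0.16 from SHPCs had the smallest p-value of all members in that comparison without passing (adjusted p = 0.440), and it was 0.47 without SHPC array 2. The difference from hepatocytes was 0.41 ± 0.16 (adjusted p = 0.415).

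Xbp1, whose messenger RNA IRE1α splices, had 9.41, 8.80 and 9.25 in hepatocytes, 9.40, 8.54 and 9.53 in SHPCs and 9.41, 9.49 and 9.78 in transplant SHPCs. Atf6, the membrane-bound factor cleaved under ER stress, had 8.61, 7.59 and 8.35, then 8.54, 7.34 and 8.47, then 8.38, 8.51 and 8.47. In both genes the 2 arrays that stand apart were the lowest, and on the other arrays the groups overlapped or touched. Gene-level probe sets cannot tell spliced from unspliced Xbp1.

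Herpud1, an ER membrane protein of the degradation machinery, overlapped in all groups at 0.30 ± 0.28 for transplant SHPCs over hepatocytes (adjusted p = 0.750). Hsf1, the heat shock factor, had 5.94, 5.66 and 5.85 in hepatocytes, 6.04, 5.62 and 6.21 in SHPCs and 5.92, 5.90 and 5.60 in transplant SHPCs, with no separation. Its difference between transplant SHPCs and hepatocytes was −0.01 ± 0.18 (adjusted p = 0.990).

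Among the cytosolic chaperones, Hsph1, the heat-inducible HSP110, had levels of 8.19, 7.95 and 8.15 in hepatocytes, 7.76, 7.51 and 8.06 in SHPCs and 7.40, 7.29 and 7.46 in transplant SHPCs. The transplant arrays were the 3 lowest, and only SHPC array 3 reached into the hepatocyte range. The differences were −0.71 ± 0.16 for transplant SHPCs against hepatocytes (adjusted p = 0.0776), −0.39 ± 0.16 against SHPCs (adjusted p = 0.653) and −0.32 ± 0.16 for SHPCs against hepatocytes (adjusted p = 1.00), the last being −0.19 without SHPC array 2. The first passed in several alternatives, among them the fit without both arrays that stand apart, where it was −0.78 (adjusted p = 0.0148), and the fit with the replicate number as a block (adjusted p = 0.0333).

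Hspb1, the small heat shock protein HSP27, had 5.86, 5.71 and 6.40 in hepatocytes, 5.54, 5.78 and 5.78 in SHPCs and 5.43, 5.14 and 5.26 in transplant SHPCs. The transplant arrays were again the 3 lowest. Hspb1 differed by −0.71 ± 0.19 from hepatocytes (adjusted p = 0.143) and by −0.42 ± 0.19 from SHPCs (adjusted p = 0.679).

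Hsp90ab1, the constitutive cytosolic HSP90, had 9.62, 9.12 and 9.65 in hepatocytes, 9.19, 8.80 and 9.59 in SHPCs and 8.95, 8.92 and 8.74 in transplant SHPCs. All transplant arrays were below all hepatocyte arrays, by −0.60 ± 0.22 (adjusted p = 0.346), while SHPCs overlapped both. Hspa8, the constitutive HSC70, had 12.28, 12.02 and 12.04, then 11.97, 11.81 and 12.12, then 11.72, 11.66 and 11.84 in the same order, so that it too was lower on the transplant arrays than in hepatocytes, by −0.38 ± 0.14 (adjusted p = 0.357).

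Of the other cytosolic HSP70 genes, Hspa4l was the only one with a higher mean in transplant SHPCs than in hepatocytes. Hspa4l, an HSP110 relative, was 0.45 ± 0.24 higher in transplant SHPCs than in SHPCs (adjusted p = 0.705) with all its arrays at or above 5.47 against at most 5.30. Hspa4, another HSP110 relative, ran from 7.84 to 8.58, and 6 of its 9 arrays read 8.25 when rounded to 2 decimals. The 7 genes of the role had medians of −0.18 for SHPCs against hepatocytes, with 0 of 7 higher (−0.08, with 1 of 7 higher, without SHPC array 2), −0.17 for transplant SHPCs against hepatocytes, with 1 of 7 higher, and −0.04 for transplant SHPCs against SHPCs, which became 0.07 after median centring and 0.01 after quantile normalization.

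The small heat shock proteins prevent aggregation without using ATP. Apart from Hspb1 their levels overlapped in all comparisons, and the median of the 7 was −0.27 for transplant SHPCs against hepatocytes, −0.16 against SHPCs and 0.03 for SHPCs against hepatocytes, the first being −0.16 without hepatocyte array 2. Hspb8, the partner of the cochaperone Bag3, had 7.88, 7.43 and 7.41 in hepatocytes, 7.37, 6.82 and 7.61 in SHPCs and 7.48, 7.19 and 7.24 in transplant SHPCs. Hspb9 owed its value in SHPCs to array 2, at 5.93 against 4.68 on both others, and Hspb2 read the same, 4.60, on all 3 transplant arrays. Hspb7 differed by −0.30 ± 0.15 between transplant SHPCs and SHPCs, with overlapping arrays (adjusted p = 0.698).

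**Figure D3:**
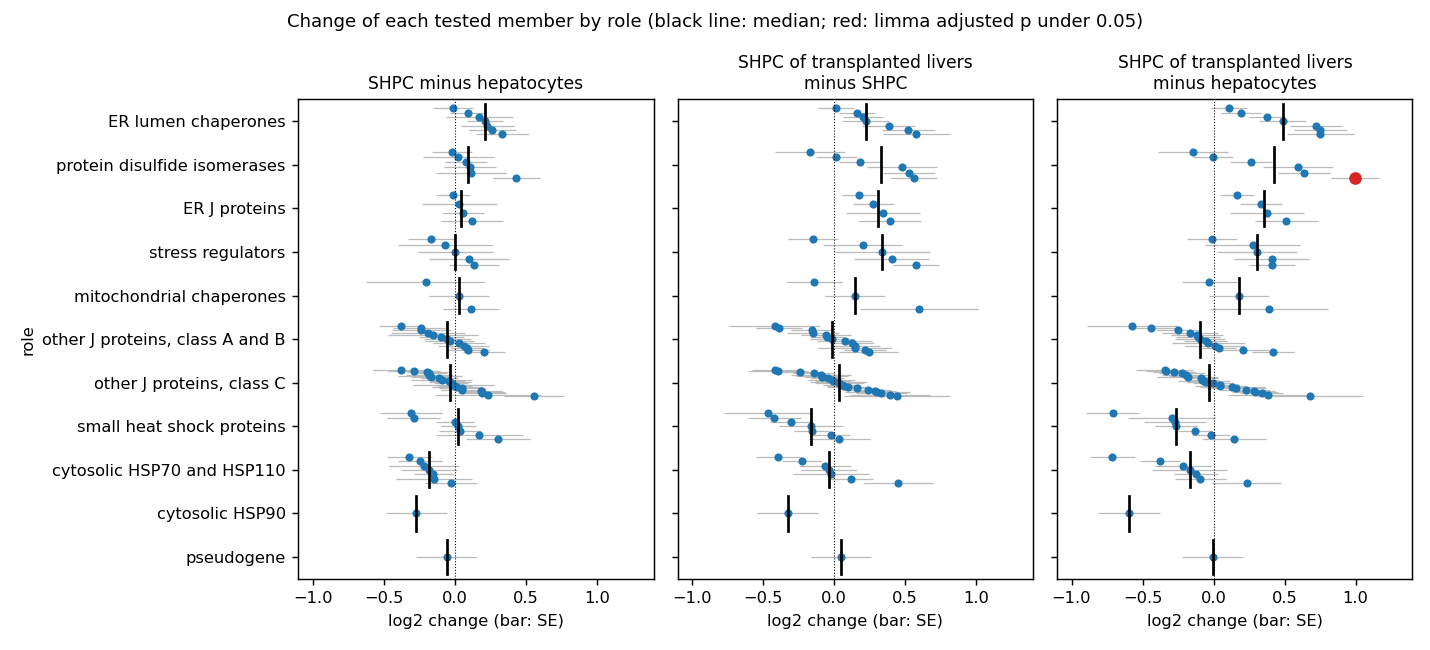
Log2 change of each tested member (points, with SE bars) by role (rows) in the 3 comparisons (panels); black lines are medians of a role and red marks a limma adjusted p under 0.05. Pdia6 in transplant SHPCs against hepatocytes is the only red point, and the medians of the ER lumen, isomerase and ER J rows lie at 0.49, 0.43 and 0.36 there.

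The mitochondrial chaperones did not separate the groups. Hspa9, or mortalin, the HSP70 of the matrix, had 10.64, 10.01 and 10.59 in hepatocytes, 10.61, 10.05 and 10.67 in SHPCs and 10.59, 10.57 and 10.61 in transplant SHPCs. Hspd1, or HSP60, had 9.73, 8.93 and 9.94, then 9.82, 8.24 and 9.92, then 10.03, 9.93 and 9.80, and its lid Hspe1 had 9.33, 9.24 and 9.78, then 9.81, 9.21 and 9.67, then 9.44, 9.52 and 9.30. For all of them array 2 was the lowest SHPC array and the lowest hepatocyte array, and the groups overlapped. The median of the 3 for transplant SHPCs over hepatocytes was 0.18 and turned to −0.02 under cyclic loess and to −0.03 without hepatocyte array 2.

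The J proteins outside the ER were spread to both sides of 0. Dnaja1, a class A partner of HSC70, was below hepatocytes on every SHPC array, with 10.496, 10.003 and 10.47 against 10.81, 10.65 and 10.64, a difference of −0.38 ± 0.16 (adjusted p = 1.00), and −0.22 without SHPC array 2. Transplant SHPCs, at 10.48, 10.37 and 10.51, were also below hepatocytes. Dnajb1, the heat-inducible HSP40, overlapped in all groups, from 6.004 to 6.56. Dnaja4 had 6.20, 6.25 and 6.04 in hepatocytes, 5.90, 6.46 and 5.98 in SHPCs and 5.64, 5.71 and 5.83 in transplant SHPCs, the 3 lowest, at −0.44 ± 0.16 against hepatocytes (adjusted p = 0.376) and −0.39 ± 0.16 against SHPCs (adjusted p = 0.667), the latter −0.22 without SHPC array 2.

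Dnajb5 was 0.42 ± 0.15 higher in transplant SHPCs than in hepatocytes (adjusted p = 0.330) with overlapping arrays. The 13 class A and B proteins outside the ER had medians of −0.05, −0.02 and −0.09 for SHPCs against hepatocytes, transplant SHPCs against SHPCs and transplant SHPCs against hepatocytes. Without SHPC array 2 the first 2 were 0.01 and −0.08, and without hepatocyte array 2 the last was −0.20.

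Of the 22 class C proteins, Dnajc5b had the largest difference of any member between SHPCs and hepatocytes, at 3.14, 3.74 and 3.35 against 2.87, 3.07 and 2.62. Its difference of 0.56 ± 0.21 did not pass (adjusted p = 1.00), and it exceeded the limit for dim genes on only 5 of the 9 arrays. Dnajc12 was lower in transplant SHPCs than in hepatocytes on every array, at 6.96, 6.75 and 6.78 against 7.13, 7.10 and 7.25 and a difference of −0.33 ± 0.15 (adjusted p = 0.468). Dnajc17, which is linked to the spliceosome, was 4.76, 4.54 and 5.00 in transplant SHPCs against 5.02, 5.32 and 5.21 in SHPCs, a difference of −0.41 ± 0.16 (adjusted p = 0.634). Dnajc2, a ribosome-bound J protein, was −0.38 ± 0.20 and Dnajc4 −0.29 ± 0.18 for SHPCs against hepatocytes, and −0.17 and −0.08 without SHPC array 2. The class C medians were −0.03, 0.03 and −0.03 in the order above, and the first 2 were 0.02 and −0.01 without SHPC array 2.

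Counts over the 76 tested members set these values against all genes. Between transplant SHPCs and hepatocytes 1 member passed (1.32%), Pdia6, against 1.18% of all genes (0.861% higher and 0.317% lower), so the share was that of the background. Groups did not overlap for 17 members in the higher direction (22.4%), against 12.6% of all genes, and for 11 in the lower (14.5%), against 6.64%. An unadjusted p under 0.05 was reached by 13 higher members (17.1%, against 7.07%) and 6 lower ones (7.89%, against 3.32%), against 10.4% of all genes in either direction. Of the 17, 13 were among the 17 tested genes of the ER lumen, ER J and isomerase roles, the others being Ern1, Dnajc18, Dnajc25 and Dnajc9.

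Between transplant SHPCs and SHPCs, limma called 0 members and 0.00633% of all genes, with 9 members at an unadjusted p under 0.05, 5 higher (6.58%, against 5.07%) and 4 lower (5.26%, against 2.29%), and 7.35% of all genes in either direction. The arrays did not overlap for 13 members in the higher direction (17.1%, against 10.6% of all genes) and for 4 in the lower (5.26%, against 5.23%), the latter being Dnaja4, Dnajc17, Hspb1 and Hsph1. Between SHPCs and hepatocytes limma again called 0 members, with 0.0633% of all genes called (0.0317% in each direction) and 3 members at an unadjusted p under 0.05, 2 higher (2.63%, against 2.31%) and 1 lower (1.32%, against 1.81%), and 4.12% of all genes in either direction. Here 2 members stood apart in the higher direction, Dnajc5b and Hspa5 (2.63%, against 2.72%), and 2 in the lower, Dnaja1 and Dnajc4 (2.63%, against 2.49%), which is the background share. The 3 comparisons share arrays, and transplant SHPCs against hepatocytes combines cell type and transplantation, which cannot be told apart in it.

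Same-numbered SHPC and hepatocyte arrays deviated together, most of all those numbered 2, so their differences were also taken pair by pair. Pairing by number is an assumption, since SHPC array 3 correlated more with hepatocyte array 1 (r = 0.48) than with hepatocyte array 3 (r = 0.341). Pdia6 was higher in SHPCs in each pair, by 0.40, 0.38 and 0.52. Hspa5 was higher by 0.27, 0.01 and 0.36, Hyou1 by 0.64, −0.10 and 0.47 and Calr by 0.34, −0.03 and 0.38, so that pair 2 showed no difference in these 3. In 3 of 3 pairs 7 members were higher (9.21%, against 12.3% of all genes), among them Pdia6, Pdia5, Hspa5, Hsp90b1 and Dnajb9, and 11 were lower (14.5%, against 13.4%), among them Hsph1, Hsp90ab1, Dnaja1 and Dnajb1. In a fit of these 2 groups alone 0 genes were called, and with the pair as a block 76 genes, of which 0 were members. The adjusted p of Pdia6 was 0.361 in that fit.

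Leaving out both arrays that stand apart raised the number of called members between transplant SHPCs and hepatocytes from 1 to 9, while the genes called in all rose from 186 to 575 (3.64% of all). Calr, Hspa13, Hyou1, Pdia6 and Sdf2l1 were higher and Dnajc2, Hsp90ab1, Hspb1 and Hsph1 lower. Without SHPC array 2 alone, which enters that comparison only through the shared spread, there were 6 of 76 among 472 genes called (2.99% of all), Calr, Hspa13, Hyou1, Pdia3 and Pdia6 higher and Hsph1 lower. In the other comparisons 0 members were called in either case.

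The 2 sides can be set against each other within an array. The set of 17 ER genes joins the ER lumen, ER J and isomerase roles, and the cytosolic set of 15 joins the HSP70 and HSP110, HSP90 and small heat shock roles. Both sets were formed after the values were seen and carry no test. The median of the ER set minus that of the cytosolic set, each relative to the hepatocyte means, was 0.03, 0.11 and −0.06 on the hepatocyte arrays, 0.44, 0.06 and 0.22 on the SHPC arrays and 0.46, 0.83 and 0.57 on the transplant arrays. The transplant arrays were the 3 highest, and SHPC array 2 lay among the hepatocytes.

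After quantile normalization and cyclic loess the transplant arrays stayed above all hepatocyte arrays, but not above all SHPC arrays under cyclic loess. After cyclic loess the difference was −0.01, 0.06 and −0.14 in hepatocytes, 0.36, 0.47 and 0.11 in SHPCs and 0.32, 0.67 and 0.47 in transplant SHPCs, and after quantile normalization SHPC array 2 stood at 0.34. Of the 17 ER genes, 15 were higher in transplant SHPCs than in hepatocytes and 16 higher than in SHPCs, against 49.7% and 53% of all genes. Of the 15 cytosolic genes, 13 and 12 were lower. Against hepatocytes the SHPCs had 14 of 17 ER genes higher (against 48.6% of all genes), with a median of 0.11. Of the cytosolic genes 10 of 15 were lower, with a median of −0.15. Leaving out SHPC array 2 gave medians of 0.28 and −0.07.

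**Figure D4:**
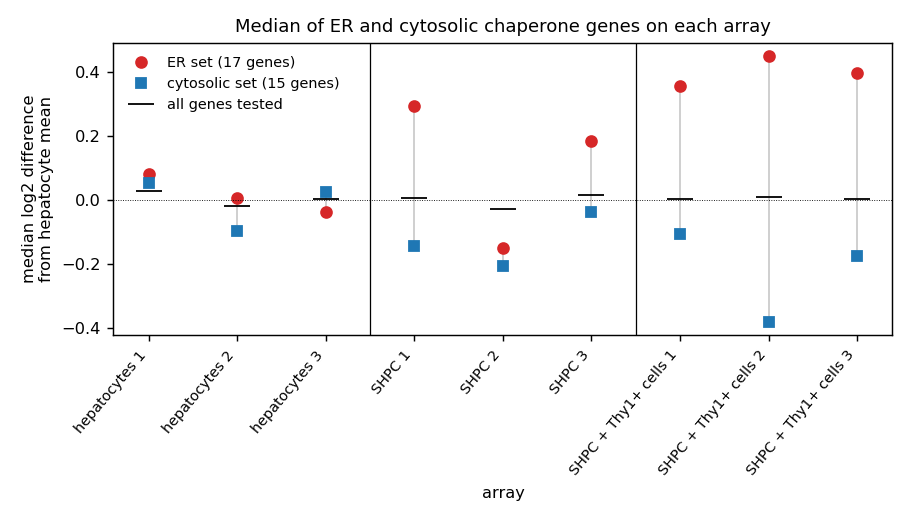
Median log2 difference from the hepatocyte mean (vertical axis) over the ER set of 17 genes (circles), the cytosolic set of 15 genes (squares) and all tested genes on each of the 9 arrays (horizontal axis). The ER median lies between 0.35 and 0.45 and the cytosolic median between −0.38 and −0.11 on the 3 transplant arrays, and SHPC array 2 has an ER median of −0.15.

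Grouped by the upstream elements printed above, the 8 members with either ER stress element were all higher in transplant SHPCs than in hepatocytes, with a median of 0.34 and 5 not overlapping, where 49.7% of all genes were higher and 12.6% did not overlap. All 8 were higher than in SHPCs, as 53% of all genes were, with a median of 0.20, or 0.10 without SHPC array 2. This did not hold under cyclic loess, where Hspa5, Canx, Dnajc3, Herpud1 and Hsp90b1 lay from −0.03 to −0.24 against SHPCs. Canx, Dnajc3 and Hsp90b1 lay from −0.01 to −0.09 against hepatocytes there. The 4 with a heat shock element had a median of −0.20 against hepatocytes. Hsph1 was at −0.71 and Hspa8 at −0.38, while Hspe1 was level at −0.03. Hspd1, whose match is the same letters as that of Hspe1, was at 0.39, or 0.09 without hepatocyte array 2. The 6 with a UPR core went both ways against hepatocytes, from −0.71 for Hsph1 to 0.72 for Hyou1. Hsph1 and Dnajb3 were lower, and Dnajc10, Dnajc25, Hspa5 and Hyou1 were higher. The 44 tested members with a window and no match had a median of −0.06, with 18 higher and 26 lower. They include ER genes that were higher, such as Hspa13 at 0.75 and Pdia5 at 0.59, and cytosolic genes that were lower, such as Hspb1 at −0.71. Element and role were therefore not separated, and Pdia6 had no window. Hsph1 holds both a heat shock element and a UPR core and had the lowest change of all members against hepatocytes, and Hsp90b1 holds the ER stress element at 2 places and was level, so members with a shared element did not share one size of change.

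Other genes of these pathways were counted from lists chosen by function. Of all tested genes, 49.7% were higher in transplant SHPCs than in hepatocytes, and 0.861% were called higher. Against SHPCs 53% were higher in transplant SHPCs, and 48.6% were higher in SHPCs than in hepatocytes. Of 29 tested UPR and translocation genes outside the members, 22 were higher in transplant SHPCs than in hepatocytes (median 0.27), and 2 rose, Sec61a1, the pore of the ER translocon, by 1.33 ± 0.26 (limma adjusted p = 0.047) and Ssr3, a subunit of the translocon-associated complex, by 1.20 ± 0.22 (adjusted p = 0.033). Trib3, a target of the ATF4 branch, was at −0.86 (adjusted p = 0.063) and Ddit3, which encodes CHOP, at 0.09. Against SHPCs 20 were higher (median 0.24), and of SHPCs against hepatocytes 17 were higher (median 0.05), with 0 passing in either. Leaving out SHPC array 2 gave medians of 0.09 and 0.18.

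Of 32 further ER folding genes, 27 were higher in transplant SHPCs than in hepatocytes (median 0.29), and Ostc, a subunit of the oligosaccharyltransferase that glycosylates nascent proteins, rose by 0.82 ± 0.15 (limma adjusted p = 0.029). P4hb, the founding disulfide isomerase, was at 0.67 ± 0.14 (adjusted p = 0.053). Against SHPCs 28 of 32 were higher (median 0.21), with Erp29 at 0.70 and Ppib, an ER cyclophilin, at 0.63, and SHPCs were higher than hepatocytes in 24 (median 0.12), with 0 passing. Without SHPC array 2 these were 21 of 32 (median 0.08) and 29 of 32 (median 0.25), and without hepatocyte array 2 the last was 17 of 32 (median 0.01). The calls of Sec61a1, Ssr3 and Ostc were lost without SHPC array 3 and without any single transplant or hepatocyte array, with adjusted p-values there from 0.0515 to 0.221, and after median centring.

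The 22 genes of ER-associated degradation had medians of 0.14 for transplant SHPCs against hepatocytes, 0.15 against SHPCs and −0.01 for SHPCs against hepatocytes, and 0 passed. These last 2 were −0.02 and 0.14 without SHPC array 2, and without hepatocyte array 2 the first was 0.06. Edem1, which passes misfolded glycoproteins to degradation, was the largest at 0.52 against hepatocytes. The 26 cochaperones and heat shock factor partners had medians of 0.02, 0.07 and −0.03 in the same order with 0 passing. In transplant SHPCs against hepatocytes 13 were higher, by at most 0.61, and 13 lower. The HSP90 cochaperones Ppid and Chordc1 were at −0.46 and −0.44 there. Fkbp5, an HSP90 cochaperone induced by glucocorticoids, was 0.54 higher in SHPCs than in hepatocytes and differed by −0.89 ± 0.17 in transplant SHPCs against SHPCs (adjusted p = 0.181). The 13 genes of the cytosolic chaperonin TRiC and of prefoldin had medians of 0.07, 0.10 and −0.10, and the 15 of mitochondrial protein quality 0.11, 0.04 and 0.04, with 0 passing and Trap1, the mitochondrial HSP90, at 0.76 against hepatocytes. The medians of these last 3 lists against SHPCs were −0.03, −0.08 and −0.05 without SHPC array 2, and those against hepatocytes −0.04, −0.11 and −0.01 without hepatocyte array 2.

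Markers of other cells in the capture were measured beside these changes. Hepatocyte markers were high in all groups, with a summed intensity of the 7 measured genes of 35200 to 38400 in hepatocytes, 35000 to 40300 in SHPCs and 41200 to 42100 in transplant SHPCs. Kupffer cell markers summed to 1980 to 2660, 1430 to 2330 and 2670 to 3260 in the same order, and 10 of 10 were higher in transplant SHPCs than in SHPCs, with a median of 0.56, and 9 of 10 higher than in hepatocytes, where the median was 0.24. The first median was 0.24 when SHPC array 2 was left out, and the second 0.04, with 5 of 10 higher, when hepatocyte array 2 was. Stellate and fibroblast markers summed to 671 to 1020, 575 to 886 and 913 to 1110, with 8 of 8 and 7 of 8 higher in transplant SHPCs. Both lists were higher in transplant SHPCs, as the ER genes were. Hepatocyte markers were higher there in 7 of 7 against either group. Endothelial markers were higher in 5 of 5 against SHPCs and 3 of 5 against hepatocytes, and cholangiocyte markers in 4 of 8 and 5 of 8. Without SHPC array 2 the hepatocyte and endothelial counts against SHPCs were 5 of 7 and 4 of 5. The part of any of these lists in the ER differences was not tested. Between SHPCs and hepatocytes 1 of 10 Kupffer markers and 2 of 8 stellate markers were higher, and 6 of 10 and 5 of 8 when SHPC array 2 was left out. Cholangiocyte markers were higher in SHPCs in 8 of 8 and endothelial markers in 1 of 5. Without SHPC array 2 these were 5 of 8 and 4 of 5.

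Plasma and B cell markers had overlapping sums of 124 to 160 in hepatocytes, 131 to 158 in SHPCs and 129 to 153 in transplant SHPCs, with 2 of 7 higher in transplant SHPCs against either group and 4 of 7 higher in SHPCs than in hepatocytes. Cholangiocyte markers summed to 188 to 212, 215 to 228 and 223 to 252, endothelial markers to 560 to 829, 501 to 724 and 746 to 861, and T and NK cell markers to 99.4 to 109, 96.6 to 116 and 101 to 111, with Cd3d dim on all arrays. The 2 measured erythroid markers summed to 37.3 to 49.6, 43.9 to 49.1 and 47.3 to 50.3, with Ahsp dim on all. In such captured tissue, fewer cells of a type and less RNA per cell cannot be told apart.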

How the data were processed

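The authors deposited, for 9 arrays, a linear intensity of each of 36685 probe sets. Per the submitters' processing notes it was made with RMA, a method that includes background correction, normalization across arrays and probe summaries; no version or setting is named in the labels. Values were not normalized again. The log2 of each deposited intensity was taken here. Arrays have no read depth, and 3 arrays per group limit the precision.

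The platform annotation names 18511 probe sets with 1 symbol, 575 with several (not used) and leaves 17599 unnamed here; 18394 Entrez IDs were found in RefSeq's GRCr8 table. Each gene was represented by its brightest probe set on average. Testing needed 3 arrays over their own 25th percentile, which left out 2373 genes. R 4.3.3 and limma 3.58.1 fitted the 3 groups together (6 residual degrees of freedom), moderated by eBayes, with Benjamini-Hochberg adjusted p at 0.05; the code was tested on simulated data.

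Named were a list of main chaperones, members past the threshold, the 6 members with the smallest p in each direction and comparison, and up to 2 genes per list and comparison; Pdia5, Pdia2, Dnajc10, Hspa4l, Hspb2, Hspb9, Erp29, Ppib, Trib3, Ddit3 and the members named by non-overlap or by pairs were added after their values were seen. Members, lists and markers were chosen with earlier results of these data known. Same-numbered SHPC and hepatocyte arrays deviated together from their group means (r = 0.526, 0.705 and 0.341). Those of transplant SHPCs did not (r from −0.0936 to 0.00234). SHPC array 3 correlated more with hepatocyte array 1 (r = 0.48) than with hepatocyte array 3, so these values do not settle that the numbers mark pairs. Alternatives were other scalings, filters, probe set rules, fits, array weights and each array left out. A planned look at protein sequences was not run.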

Additional observations from a re-analysis of the deposited data

How the results depend on the processing

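Between transplant SHPCs and hepatocytes the count of called members, 1 as reported, was 4 after quantile normalization, 4 after cyclic loess, 0 after median centring, 5 with only the 2 groups in the fit, 2 with the replicate block, 28 with array quality weights (19 higher and 9 lower, of 2685 genes called) and 9 without both arrays that stand apart, and from 0 to 6 with 1 array left out. The count of all genes called, 186, was then 328, 440, 47, 304, 367, 2685 and 575, and from 31 to 472. The median change of the members, −0.00, was 0.090 after median centring and ran from −0.026 to 0.067 with 1 array left out. Array weights, which lower the influence of the arrays that stand apart, called 2 of 76 members between SHPCs and hepatocytes (Hyou1 and Pdia6), with 375 of all genes called (2.37%). They called 1 of 76 between transplant SHPCs and SHPCs (Hsph1), with 259 of all genes called (1.64%). Under every other setting 0 members were called in these 2 comparisons. The array weights also turned the difference of Grpel2 between SHPCs and hepatocytes, −0.20, to 0.11, and the cause was not tested. The replicate block called 35 genes between SHPCs and hepatocytes and 64 between transplant SHPCs and SHPCs, with 0 members in either, and added Hsph1 to Pdia6 as a called member. Median centring moved the median of all genes from 0.02 to 0.12 between transplant SHPCs and SHPCs, and from −0.00 to 0.09 against hepatocytes, so its member values lie higher by about that much. Over the members compared across alternatives, 38 of 703, 23 of 649 and 16 of 609 values changed sign in the 3 comparisons, in 14, 10 and 8 members, and 0 of these were past the threshold or among the 6 smallest p-values in a direction. No alternative failed to run. The block for SHPC and hepatocyte arrays alone was chosen after seeing the data.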
